A study of Mus musculus with 15 samples.

Results

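The expression of 49 genes of the mitotic cell cycle was examined in bone marrow-derived macrophages (BMDM) from mice with a myeloid deletion of Nelfb and in their WT counterparts. The genes were chosen by name, as parts of the machinery that carries a cell from G2 through mitosis to cytokinesis. Earlier results of these data were known when they were chosen, so the counts below describe this list only. All 49 symbols were found among the 23996 genes of the table, and all 49 were among the 11258 genes that averaged at least 0.5 FPKM over the 5 groups. FPKM divides the number of sequenced fragments of a gene by transcript length and by the mapped depth of the library, so levels of different genes can be set side by side.

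Nelfb encodes the NELF-B subunit of the negative elongation factor, a complex that holds RNA polymerase II just downstream of promoters, and the study asked what its loss does to resting and activated macrophages. Nelfb KO BMDM came from Nelfb fl/fl, Lyz2Cre mice, in which the Lyz2 promoter drives Cre in myeloid cells, and WT BMDM came from Lyz2Cre mice with intact Nelfb, so both genotypes carried Cre. All mice were C57BL/6, matched for age and sex according to the methods, and ages were not given in the sources used here. Bone marrow cells were grown for 5 days with L929 supernatant, a source of macrophage colony-stimulating factor, and polyA RNA was sequenced from Nelfb KO BMDM at rest and after 30 min of 10 ng/ml LPS, and from WT BMDM at rest and after 30 and 60 min of LPS. LPS is a bacterial cell wall component that activates macrophages. Each of the 5 groups held 3 libraries, 15 in all, described in the methods as biological replicates. The table gives 1 average per group and no value per library, so no spread between replicates and no test could be computed from it here, and a difference below is a difference between averages. The number of reads behind each average is unknown.

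Mitosis is driven by cyclin-dependent kinase 1 bound to cyclin A or cyclin B, with Aurora and Polo-like kinases acting beside it. Kinetochores tie chromosomes to the spindle, the spindle checkpoint delays anaphase until all are attached, and the anaphase-promoting complex (APC/C) then has cyclin B and securin destroyed. Genes of this group are repressed in quiescent cells by the DREAM complex and switched on late in the cycle by B-MYB and FOXM1, and their promoters are known for the cell cycle homology region (CHR) and for CCAAT boxes bound by NF-Y. Macrophages grown with colony-stimulating factor can still divide in culture. In bulk RNA, fewer cycling cells and less of a transcript per cell cannot be told apart.

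Promoter sequence was the first feature compared that the choice of genes did not use. RefSeq windows (build GRCm38.p6, 250 bases before to 50 bases after each start site) were matched by symbol for 41 of the 49 genes, giving 43 windows, since Ect2 and Prc1 had 2 each. Windows were not matched for Aurkb, Pbk, Tpx2, Stmn1, Ccna2, Spc24, Incenp and Kif20a. The 6 windows below are printed with the CHR core (TTTGAA or TTTAAA, read on either strand) and the CCAAT box, also read on either strand, in capitals. They were chosen by the ratio of Nelfb KO over WT at 30 min and not by motif, so they are extremes of that ratio. Ccnb1, Top2a, Mad2l1, Bub1 and Kif11 had the lowest ratios among members with a single window. Pttg1 had the highest ratio of all members. Among them, Kif11 has a compact CHR and CCAAT pair, Bub1 has CCAAT boxes alone, and Mad2l1 and Pttg1 have neither motif. Each is written 5′ to 3′ on the strand of the gene.
Ccnb1, chr13:100786437-100786736, minus strand: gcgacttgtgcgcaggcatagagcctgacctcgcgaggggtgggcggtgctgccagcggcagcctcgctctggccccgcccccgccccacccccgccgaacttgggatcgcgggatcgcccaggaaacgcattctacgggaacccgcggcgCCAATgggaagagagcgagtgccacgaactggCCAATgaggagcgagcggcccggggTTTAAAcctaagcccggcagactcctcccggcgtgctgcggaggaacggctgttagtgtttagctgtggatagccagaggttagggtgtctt
Top2a, chr11:99024140-99024439, minus strand: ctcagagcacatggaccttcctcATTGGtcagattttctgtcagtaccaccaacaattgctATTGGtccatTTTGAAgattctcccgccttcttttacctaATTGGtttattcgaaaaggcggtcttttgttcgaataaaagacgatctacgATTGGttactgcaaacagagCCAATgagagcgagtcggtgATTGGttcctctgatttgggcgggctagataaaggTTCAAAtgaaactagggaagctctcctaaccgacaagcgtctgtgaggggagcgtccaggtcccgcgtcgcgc
Kif11, chr19:37376132-37376431, plus strand: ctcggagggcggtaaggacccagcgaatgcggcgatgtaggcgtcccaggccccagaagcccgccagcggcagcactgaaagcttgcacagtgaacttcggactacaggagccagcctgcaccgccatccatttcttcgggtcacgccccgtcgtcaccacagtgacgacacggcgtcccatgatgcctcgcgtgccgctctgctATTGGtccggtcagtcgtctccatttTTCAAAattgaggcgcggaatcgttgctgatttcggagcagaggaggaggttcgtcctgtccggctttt
Bub1, chr2:127831810-127832109, minus strand: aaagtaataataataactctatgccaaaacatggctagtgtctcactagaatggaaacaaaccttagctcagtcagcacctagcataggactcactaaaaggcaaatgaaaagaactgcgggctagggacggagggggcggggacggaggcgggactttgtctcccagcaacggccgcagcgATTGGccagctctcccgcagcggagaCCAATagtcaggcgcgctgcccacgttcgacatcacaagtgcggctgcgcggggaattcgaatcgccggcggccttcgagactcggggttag
Mad2l1, chr6:66534971-66535270, plus strand: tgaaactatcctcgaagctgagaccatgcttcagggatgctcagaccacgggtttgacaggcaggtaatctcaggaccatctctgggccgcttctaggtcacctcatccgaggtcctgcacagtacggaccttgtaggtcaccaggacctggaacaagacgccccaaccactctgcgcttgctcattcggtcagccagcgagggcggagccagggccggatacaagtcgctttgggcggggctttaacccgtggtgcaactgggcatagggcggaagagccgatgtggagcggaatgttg
Pttg1, chr11:43425932-43426231, minus strand: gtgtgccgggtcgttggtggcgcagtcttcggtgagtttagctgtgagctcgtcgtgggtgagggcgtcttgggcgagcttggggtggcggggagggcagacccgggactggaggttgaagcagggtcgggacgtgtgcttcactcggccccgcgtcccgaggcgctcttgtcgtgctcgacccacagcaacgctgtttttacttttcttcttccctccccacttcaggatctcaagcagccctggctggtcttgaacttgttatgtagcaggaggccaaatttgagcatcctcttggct

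In the Ccnb1 window, which covers the start of the gene for cyclin B1, the middle of the CHR core lay 40 bases upstream of the start site and CCAAT boxes lay 65 and 97 bases upstream. The Kif11 window placed its CHR core 17 bases and its CCAAT box 43 bases upstream. Top2a, which encodes the DNA topoisomerase that untangles sister chromatids, carried 6 CCAAT boxes and 2 CHR cores, at 21 and 177 bases upstream. Bub1 had 2 CCAAT boxes, 40 and 66 bases upstream, and no CHR core in its window. For Mad2l1 and Pttg1 the start of the gene in GENCODE M21 lies outside the window. Mad2l1 begins there at 66535390, downstream of its window, and Pttg1 at 43426251, upstream of its window, so their other starts were not searched. Ccnb1 begins there at 100786570, inside its window and upstream of its RefSeq start. Its CHR core and nearer CCAAT box lie downstream of that GENCODE start, so its distances above hold for the RefSeq start only.

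A CHR core was found in 35 of the 43 windows (81.4%), against 19.0% of the windows of the other expressed genes and 27.6% of all RefSeq promoter windows. A CCAAT box was found in 76.7% of the mitotic windows, against 37.8% of those of the other expressed genes and 37.4% of all windows. Both motifs stood together in 72.1% of mitotic windows, against 7.36% of those of the other expressed genes and 10.7% of all windows. At least 2 CCAAT boxes were present in 55.8% of mitotic windows, against 14.4% of the other expressed genes' windows and 11.7% of all. The E2F core searched (GCGGGAA or GCGCGAA, both strands) was in 2 mitotic windows, or 4.65%, against 11.1% of the other expressed genes and 6.00% of all windows. Base composition was close, with a median GC content of 59.0% in mitotic windows and 60.7% in those of the other expressed genes. Only 1 of 52 CHR matches overlapped a match of another motif. These are matches of letters and not measured binding sites.

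Median genotype ratios of members with and without the CHR core were close. The 33 genes with a CHR core had a median log2 ratio of Nelfb KO over WT, on the FPKM + 1 scale, of -0.78 at rest and -0.76 at 30 min, and the 8 genes with a window and no CHR core (Bub1, Cks2, Mad2l1, Melk, Nuf2, Nusap1, Pttg1 and Tacc3) had -0.79 and -0.78. Among the 6 with neither CHR nor CCAAT match, Mad2l1 stood at -0.96 and Pttg1 at 0.05 at 30 min.

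Facts of the whole table bear on every ratio that follows. Nelfb itself had 5.65 FPKM at rest and 5.55 FPKM at 30 min in Nelfb KO BMDM, against 21.9, 19.7 and 17.5 FPKM at rest, 30 min and 60 min in WT BMDM, so the labels and the targeted gene went together, and Nelfb transcript was not at 0 in the KO averages. Summed FPKM over all genes ranged from 511973 to 615071 between groups, the lowest and the highest being WT BMDM at 30 min and at rest. The 9 macrophage markers summed to 4768 and 4857 FPKM in the KO averages, against 4331 to 5200.05 FPKM in the WT averages, and were detected in every group. Of them Lyz2 and Mertk were higher in Nelfb KO BMDM at rest by the fold used below, with log2 ratios of 1.04 and 0.73, and Lyz2 at 30 min (1.22). Lyz2 is also the gene whose promoter drives Cre, and the number of Cre copies in each genotype was not given in the sources used here. Neutrophil markers summed to 124 and 135 FPKM in KO and 74.2 to 101 FPKM in WT, nearly all of it S100a8, and the 7 measured besides S100a8 and S100a9 averaged below 0.5 FPKM. Lymphocyte markers summed to 23.8 to 25.7 FPKM in KO and 25.2 to 33.0 FPKM in WT, from Cd79b and Cd4 with the other 8 below 0.5 FPKM, and Cd4 had 4.14 (rest) and 4.01 (30 min) FPKM in Nelfb KO cells, against 9.21 (rest), 9.34 (30 min) and 9.50 (60 min) FPKM in WT cells. Stromal markers summed to 27.3 and 28.7 FPKM in KO and 24.4 to 27.5 FPKM in WT, and erythroid markers to under 1 FPKM in every group. The part of any of these in the mitotic ratios was not tested. Lyz2, Mertk and S100a9 were named after their values were seen. GENCODE lists pseudogenes or related sequences of Stmn1, Ccnb1, Ccnb2, Kif4 and Kif22, so the levels of these members are less certain.

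The mitotic genes as a group were lower in Nelfb KO BMDM than in WT BMDM, at rest and after LPS, by close to the same factor for most members. Their summed level was 313 FPKM at rest and 325 FPKM at 30 min in Nelfb KO BMDM, against 645, 581 and 601 FPKM at rest, 30 min and 60 min in WT BMDM. Their median level was 3.87 and 4.14 FPKM in the KO averages, and 7.57, 7.44 and 7.51 FPKM in the WT averages. The ratio of FPKM in KO over WT had a median of 0.507 at rest, with the middle 50% of genes between 0.481 and 0.564, and a median of 0.511 at 30 min, with the middle 50% between 0.484 and 0.560. Stmn1 was the most and Cenpf the least abundant member in each of the 5 groups, and no member was below 0.563 FPKM in any group.

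**Figure D1:**
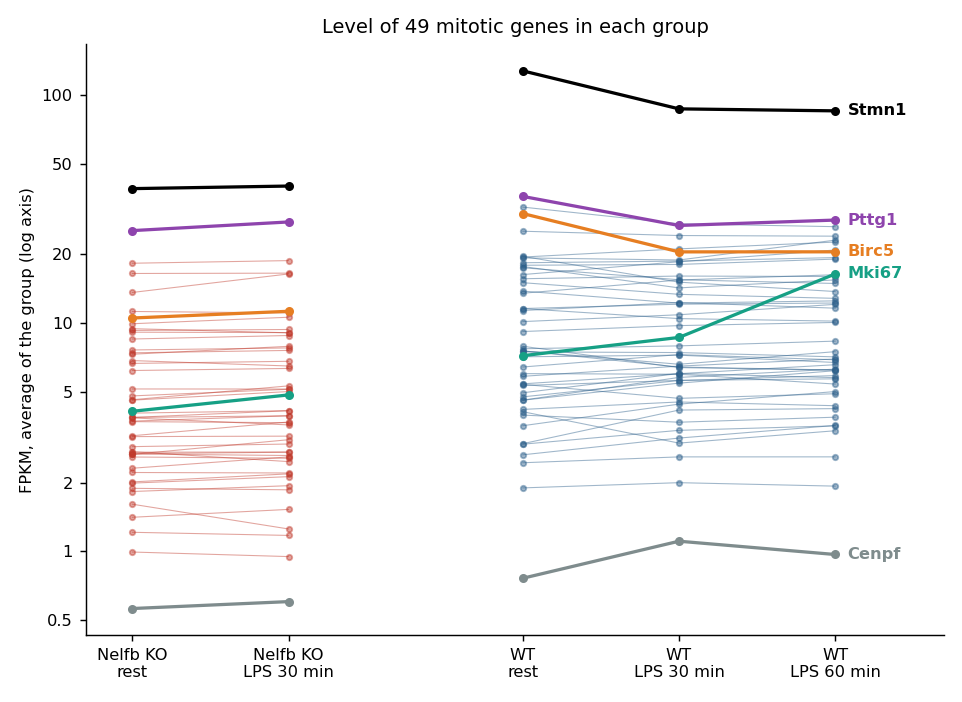
Levels of the 49 mitotic genes in each group. The vertical axis is the group average in FPKM on a log axis, each thin line is a gene (Nelfb KO red, WT blue) and 5 genes are drawn thicker and named. All genes but Pttg1 sit lower in both KO averages than in every WT average. The median is 3.87 and 4.14 FPKM in KO against 7.44 to 7.57 FPKM in WT. Stmn1 and Cenpf bound the range, and Mki67 alone climbs steeply at 60 min in WT.

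A gene was counted as lower when the ratio of FPKM + 1 was at most 0.6 and as higher when it was at least 1.4, the fold limits of the study, which on the log2 scale are -0.74 and 0.49. At rest, 33 of the 49 genes were lower in Nelfb KO BMDM by this fold and none was higher, where 3.61% of all expressed genes were lower and 1.63% higher. At 30 min of LPS, 31 of 49 were lower and none higher, where 1.36% of expressed genes were lower and 2.03% higher. Lower at both times were 25 genes, at rest only 8, at 30 min only 6, and at neither time 10. The median log2 ratio was -0.81 at rest, beside -0.02 for all expressed genes, and -0.77 at 30 min, beside 0.01. Every member had a ratio below 0 at rest, and 48 of 49 did at 30 min. In 48 of the 49 genes both KO averages lay below all 3 WT averages, an order found in 21.7% of expressed genes. The exception was Pttg1. In the account by role, where a gene has a pair of ratios, they are log2 ratios of FPKM + 1 in Nelfb KO over WT, at rest and then at 30 min.

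**Figure D2:**
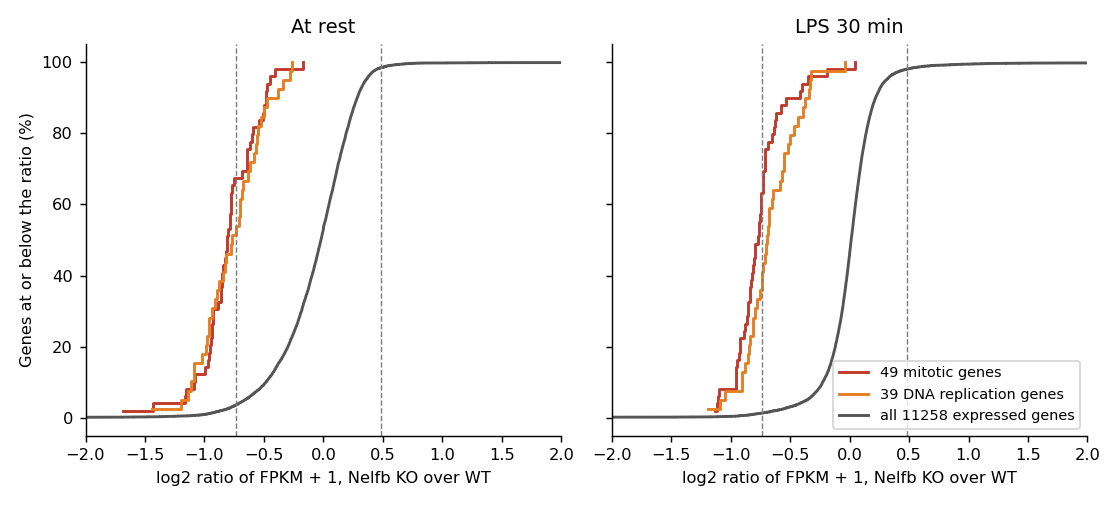
Cumulative share of genes by genotype ratio, at rest (left) and at 30 min of LPS (right). The horizontal axis is the log2 ratio of FPKM + 1, Nelfb KO over WT, the vertical axis the percentage of genes at or below it, and dashed lines mark ratios of 0.6 and 1.4. The curves of the 49 mitotic genes and of 39 DNA replication genes lie left of the curve of all 11258 expressed genes at both times.

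The first role held cyclins, Cdk1 and proteins that bind or act on CDKs. Its genes were lower in Nelfb KO BMDM in 7 of 8 cases at rest and in 5 of 8 at 30 min. Ccnb1, cyclin B1, had 6.86 FPKM at rest and 6.50 FPKM at 30 min in Nelfb KO BMDM, against 13.5, 15.5 and 16.3 FPKM at rest, 30 min and 60 min in WT BMDM, and its log2 ratio of -1.14 at 30 min was the lowest of all members (-0.89 at rest). Both KO averages were under 7 FPKM and each WT average was over 13 FPKM. Ccnb2, cyclin B2, had 6.67 (rest) and 6.81 (30 min) FPKM in Nelfb KO cells, against 13.8 (rest), 12.2 (30 min) and 12.5 (60 min) FPKM in WT cells, with ratios of -0.95 and -0.76. Ccna2, cyclin A2, which acts from S phase to early mitosis, showed 7.64 and 7.79 FPKM in the KO averages at rest and 30 min, and 15.7, 16.1 and 16.01 FPKM in the WT averages at rest, 30 min and 60 min. Its ratios of -0.95 at rest and -0.96 at 30 min hardly differed from each other. Cdk1, the kinase that all these cyclins activate, had 9.95 FPKM at rest and 10.6 FPKM at 30 min in Nelfb KO BMDM, against 18.4, 18.7 and 19.4 FPKM at rest, 30 min and 60 min in WT BMDM (ratios -0.83 and -0.76). Ccnf, cyclin F, a substrate adaptor of an SCF ubiquitin ligase and no CDK activator, stood at -0.94 and -0.77, and Cdkn3, a phosphatase that acts on CDKs, at -0.78 and -0.71.

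The small CDK-binding proteins Cks1b and Cks2 were among the more abundant members and differed from each other. Cks1b had 16.5 (rest) and 16.6 (30 min) FPKM in Nelfb KO cells, against 32.3 (rest), 27.3 (30 min) and 26.5 (60 min) FPKM in WT cells, and its ratio passed the fold at rest (-0.93) and not at 30 min (-0.69). Cks2 had 13.6 and 16.4 FPKM in the KO averages at rest and 30 min, and 19.3, 18.9 and 23.1 FPKM in the WT averages at rest, 30 min and 60 min. Its ratios of -0.47 and -0.19 did not pass the fold, its KO averages came closest to the WT ones after Pttg1 at 30 min, and it had the largest LPS difference within KO BMDM of any member (0.25 on the log2 scale).

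Of the mitotic kinases, Pbk was furthest below WT. Pbk, a mitotic serine/threonine kinase, had 4.80 FPKM at rest and 5.14 FPKM at 30 min in Nelfb KO BMDM, against 11.4, 12.3 and 11.6 FPKM at rest, 30 min and 60 min in WT BMDM, and its ratios were -1.09 and -1.12. At 30 min its plain FPKM ratio of 0.417 was the smallest of all members. Aurka, Aurora A, the centrosomal kinase of spindle assembly, had 3.87 (rest) and 3.93 (30 min) FPKM in Nelfb KO cells, against 7.55 (rest), 6.61 (30 min) and 7.51 (60 min) FPKM in WT cells, passing the fold at rest (-0.81) and not at 30 min (-0.63). Plk1, Polo-like kinase 1, showed the reverse, with -0.62 at rest and -0.85 at 30 min, from 3.85 and 3.59 FPKM in the KO averages at rest and 30 min, and 6.43, 7.29 and 6.91 FPKM in the WT averages at rest, 30 min and 60 min. Melk, a kinase that peaks in mitosis, stood at -0.78 and -0.71.

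The chromosomal passenger complex, which corrects faulty kinetochore attachments and then directs cytokinesis, was uneven. Birc5, survivin, which brings the complex to centromeres, had 10.5 FPKM at rest and 11.3 FPKM at 30 min in Nelfb KO BMDM, against 30.2, 20.5 and 20.5 FPKM at rest, 30 min and 60 min in WT BMDM. Its ratio of -1.44 at rest was the second lowest of all members and -0.81 at 30 min was near the group median, with both KO averages below 12 FPKM and every WT average above 20 FPKM. Aurkb, Aurora B, the kinase of the complex, had ratios of -0.86 and -0.84, and Cdca8, borealin, had -0.93 and -0.74. Incenp, the scaffold that binds the other subunits, had 18.3 and 18.8 FPKM in the KO averages at rest and 30 min, and 25.3, 24.2 and 24.1 FPKM in the WT averages at rest, 30 min and 60 min. Its ratios of -0.44 and -0.35 did not pass the fold, although both KO averages were still below all WT averages.

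All 4 subunits of the NDC80 complex, the main microtubule-binding part of the kinetochore, were lower by the fold at both times. Spc25 had 4.62 (rest) and 5.32 (30 min) FPKM in Nelfb KO cells, against 11.6 (rest), 10.5 (30 min) and 10.2 (60 min) FPKM in WT cells, with ratios of -1.16 and -0.86. Spc24 had 1.61 FPKM at rest and 1.26 FPKM at 30 min in Nelfb KO BMDM, against 4.10, 2.98 and 3.38 FPKM at rest, 30 min and 60 min in WT BMDM, with ratios of -0.96 and -0.82. Ndc80 stood at -0.93 and -0.88, and Nuf2 at -0.85 and -0.85, so the subunits of the complex spanned -0.88 to -0.82 at 30 min. Of the other kinetochore and centromere genes, Cenpa alone passed the fold, and only at rest. Cenpa, the histone H3 variant that marks centromeres, had 11.3 and 11.1 FPKM in the KO averages at rest and 30 min, and 19.6, 15.1 and 13.8 FPKM in the WT averages at rest, 30 min and 60 min, with -0.75 at rest, just past the limit, and -0.42 at 30 min. Cenpe, a kinetochore kinesin, was not past the fold at either time (-0.60 and -0.71), with plain FPKM ratios of 0.533 and 0.487. Cenpf, a large coiled-coil kinetochore protein and the least abundant member, had 0.563 (rest) and 0.603 (30 min) FPKM in Nelfb KO cells, against 0.764 (rest), 1.11 (30 min) and 0.970 (60 min) FPKM in WT cells. At such a level the 1 FPKM added before taking the ratio pulls the log2 ratio (-0.17 and -0.40) towards 0, and its plain FPKM ratio of 0.737 at rest was also the highest of the group.

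The spindle checkpoint genes were lower in 3 of 4 cases at both times. Mad2l1, MAD2, which joins the complex that inhibits the APC/C, had 9.13 FPKM at rest and 9.10 FPKM at 30 min in Nelfb KO BMDM, against 16.3, 18.6 and 20.9 FPKM at rest, 30 min and 60 min in WT BMDM, with ratios of -0.77 and -0.96. Bub1, the kinase that recruits checkpoint proteins to kinetochores, had 2.67 and 2.63 FPKM in the KO averages at rest and 30 min, and 5.43, 6.01 and 6.58 FPKM in the WT averages at rest, 30 min and 60 min, with ratios of -0.81 and -0.95. Bub1b, BUBR1, another part of the APC/C inhibitor, stood at -0.78 and -0.74, and Ttk, MPS1, the kinase that starts checkpoint signalling, at -0.54 and -0.62 with averages of about 1 FPKM in KO and 2 FPKM in WT.

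Genes of the APC/C pathway and anaphase included Pttg1, the only member with a genotype ratio above 0. Ube2c, the ubiquitin-conjugating enzyme that works with the APC/C, had 9.46 FPKM at rest and 9.08 FPKM at 30 min in Nelfb KO BMDM, against 17.9, 18.1 and 19.1 FPKM at rest, 30 min and 60 min in WT BMDM, with ratios of -0.86 and -0.92. Cdca3, a target of APC/C-driven destruction that promotes mitotic entry, had 7.31 (rest) and 7.92 (30 min) FPKM in Nelfb KO cells, against 17.5 (rest), 15.5 (30 min) and 14.9 (60 min) FPKM in WT cells and ratios of -1.15 and -0.89. Cdc20, the APC/C activator of metaphase, stood at -0.77 and -0.53. Pttg1, securin, which holds separase inactive until anaphase, had 25.4 and 27.8 FPKM in the KO averages at rest and 30 min, and 35.9, 26.8 and 28.3 FPKM in the WT averages at rest, 30 min and 60 min. Its ratio was -0.48 at rest and 0.05 at 30 min, where the KO average was the higher of the pair, and the resting WT average stood apart from the 4 others.

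All 4 spindle motors were below WT at both times, and 2 passed the fold at each time. Kif11, the kinesin-5 that pushes spindle poles apart, had 2.59 (rest) and 2.56 (30 min) FPKM in Nelfb KO cells, against 4.60 (rest), 5.79 (30 min) and 6.29 (60 min) FPKM in WT cells, with -0.64 at rest and -0.93 at 30 min. Kif22, a chromokinesin, showed the reverse order of ratios, -1.08 at rest and -0.66 at 30 min, from 3.21 FPKM at rest and 3.69 FPKM at 30 min in Nelfb KO BMDM, against 7.93, 6.39 and 6.23 FPKM at rest, 30 min and 60 min in WT BMDM. For Kif11 it was the WT averages that were higher with LPS, and for Kif22 the WT averages that were lower, while the KO averages of each stayed within 0.5 FPKM of each other. Kif2c, the microtubule-depolymerizing kinesin MCAK, had -0.78 and -0.79, and Kif4, a chromokinesin of the condensed chromosome and midzone, -0.64 and -0.72.

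Stmn1, stathmin, a microtubule-destabilizing protein that is phosphorylated in mitosis, was the most abundant member and the one furthest below WT at rest. Stmn1 (build mm10, chromosome 4, 134468320 to 134473843, plus strand) had 38.9 FPKM at rest and 39.9 FPKM at 30 min in Nelfb KO BMDM, against 127, 86.9 and 85.2 FPKM at rest, 30 min and 60 min in WT BMDM. Its ratios were -1.69 at rest, the lowest of all members, and -1.10 at 30 min, and no KO average came within 40 FPKM of a WT average. Among spindle assembly factors, Tacc3, which stabilizes kinetochore fibres, had 8.53 (rest) and 8.83 (30 min) FPKM in Nelfb KO cells, against 17.7 (rest), 14.3 (30 min) and 15.5 (60 min) FPKM in WT cells and ratios of -0.97 and -0.64. Tpx2, the activator of Aurora A on the spindle, stood at -0.84 and -0.80, Nusap1, a microtubule-bundling protein, at -0.82 and -0.92, and Hmmr, a spindle pole protein and hyaluronan receptor, at -0.65 and -0.83. Ckap2, a spindle-associated protein, did not pass the fold at either time (-0.48 and -0.58).

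The genes of the spindle midzone and cytokinesis were lower by the fold in 2 of 6 cases at rest and in 5 of 6 at 30 min, with medians of -0.55 and -0.78. Prc1, which bundles midzone microtubules, had 5.15 and 5.15 FPKM in the KO averages at rest and 30 min, and 10.2, 10.9 and 12.1 FPKM in the WT averages at rest, 30 min and 60 min, with ratios of -0.86 and -0.95. Racgap1, a subunit of centralspindlin, had -0.81 and -0.84, and Kif23, its kinesin partner, -0.59 and -0.79. Kif20a, a midzone kinesin, had -0.51 and -0.74. Anln, anillin, the scaffold of the contractile ring, had 2.22 (rest) and 2.21 (30 min) FPKM in Nelfb KO cells, against 3.56 (rest), 4.42 (30 min) and 5.02 (60 min) FPKM in WT cells and ratios of -0.50 and -0.76. Ect2, the exchange factor that activates RhoA at the division plane, had 1.99 FPKM at rest and 2.13 FPKM at 30 min in Nelfb KO BMDM, against 2.97, 4.16 and 4.23 FPKM at rest, 30 min and 60 min in WT BMDM, with -0.41 at rest and -0.72 at 30 min. In all 6 genes the WT average at 30 min was above the WT average at rest, and in all 6 the KO averages were within 0.2 FPKM of each other.

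Of the pair that acts on chromosome structure, Top2a had 9.30 and 9.39 FPKM in the KO averages at rest and 30 min, and 19.5, 21.2 and 22.7 FPKM in the WT averages at rest, 30 min and 60 min, with ratios of -0.99 and -1.09. Mki67, Ki-67, the surface coat of mitotic chromosomes and the usual marker of cycling cells, had 4.11 FPKM at rest and 4.85 FPKM at 30 min in Nelfb KO BMDM, against 7.21, 8.66 and 16.4 FPKM at rest, 30 min and 60 min in WT BMDM. Its genotype ratios of -0.68 and -0.72 missed the fold narrowly at both times.

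**Figure D3:**
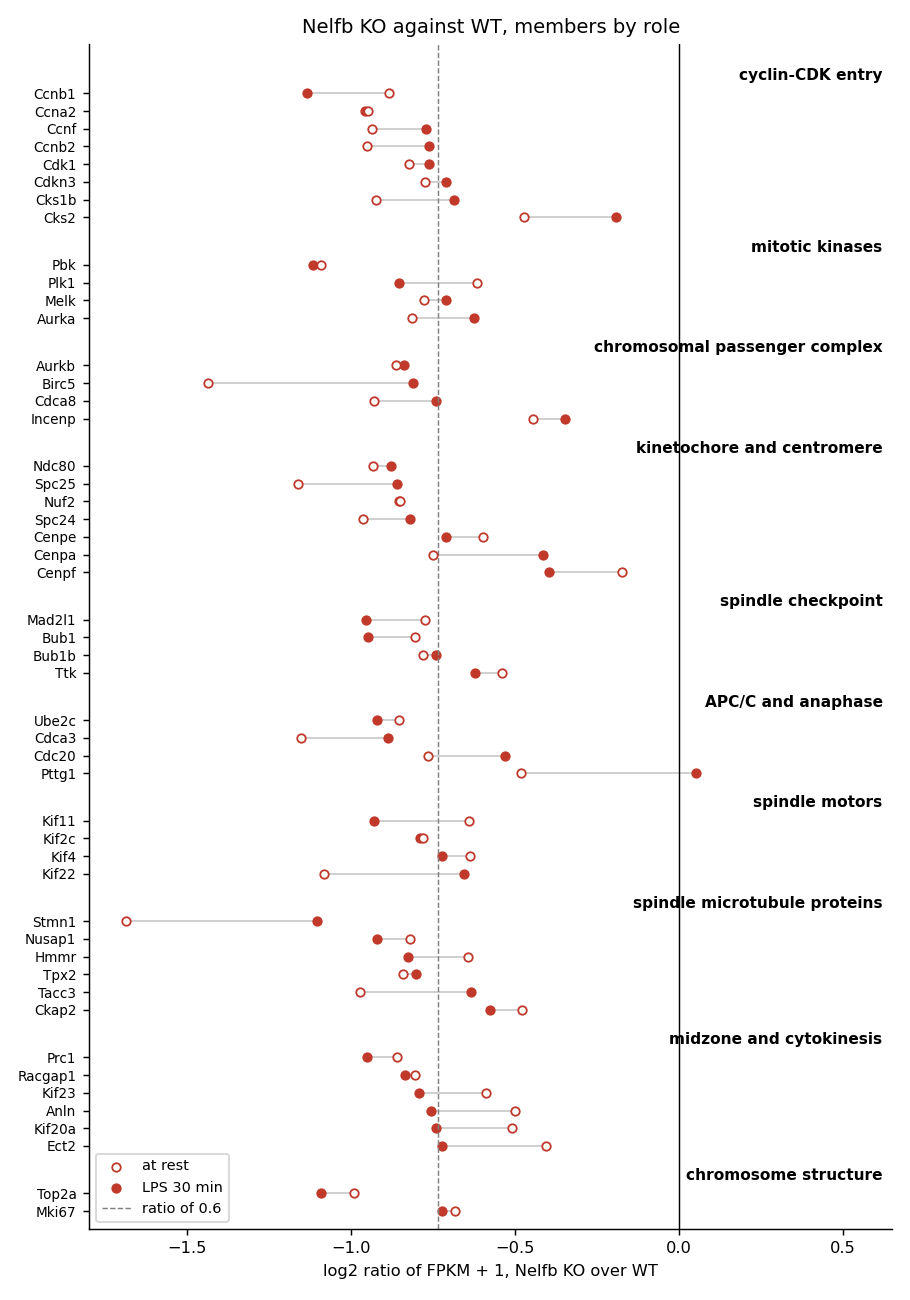
Log2 ratio of FPKM + 1, Nelfb KO over WT, for each of the 49 genes grouped by role, at rest (open circles) and at 30 min of LPS (filled circles), with a dashed line at the ratio of 0.6. Most points lie close to the dashed line, Stmn1 and Birc5 at rest lie furthest left, and Pttg1 at 30 min is the only point right of 0.

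The ratios at rest and at 30 min, which come from 4 separate groups of libraries, were related over the 49 genes by a Pearson r of 0.559 and a Spearman rho of 0.555, given as a description since genes of a group of libraries share depth and culture. The deficit was larger at 30 min in 25 genes and larger at rest in the other 24. The plain FPKM ratio of KO over WT, to which nothing is added, had a median of 0.507 at rest and 0.556 at 30 min in the 17 members of at least 10 FPKM, and of 0.509 and 0.503 in the 32 less abundant members. On the FPKM + 1 scale, which draws low genes towards 0, the medians were -0.93 and -0.76 in the 17 and -0.78 at both times in the 32.

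Few of the mitotic averages differed between LPS-treated and resting cells by the fold. At 30 min in Nelfb KO BMDM, none of the 49 genes was higher or lower than at rest by the fold, where 1.32% of expressed genes were higher and 0.222% lower, and the largest differences were 0.25 in Cks2, -0.21 in Spc24 and 0.19 in Mki67. In WT BMDM none passed the fold at 30 min, where 1.09% of expressed genes were higher and 2.07% lower. The lowest ratios there were those of Stmn1 (-0.55), Birc5 (-0.54), Pttg1 (-0.41) and Spc24 (-0.36), and the highest that of Ect2 (0.38). The median was 0.03 in Nelfb KO and 0.04 in WT.

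At 60 min, measured in WT BMDM only, 1 gene was higher than at rest and none lower, where 6.26% of expressed genes were higher and 3.22% lower. The gene was Mki67 (mm10, chromosome 7, 135689784 to 135716361, minus strand), with a log2 ratio of 1.09, and it was also the only one higher against 30 min (0.85), where 4.17% of expressed genes were higher and 0.693% lower. The next largest differences from rest were -0.58 in Stmn1, -0.54 in Birc5, -0.48 in Cenpa and 0.40 in Anln. Top2a, which shares the chromosome structure role, had 0.21. The 60 min average of Mki67 was 16.4 FPKM, more than its other 4 averages of 4.11 and 4.85 FPKM in KO and 7.21 and 8.66 FPKM in WT at rest and 30 min.

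Transcript length ran alongside the WT differences between resting cells and cells given LPS. With the longest protein-coding transcript of each gene in GENCODE M21 taken as its length, the members ranged from 692 nt (Cks2) to 11130 nt (Cenpf), with a median of 2899 nt against 2996 nt for the expressed genes with a length (98.7% of them). Over the 49 genes, length and the ratio of WT at 30 min over WT at rest had a Spearman rho of 0.69, beside 0.62 over all expressed genes, and at 60 min over rest 0.64 beside 0.50. In Nelfb KO BMDM the same rho at 30 min was -0.03 beside -0.09. For KO over WT it was 0.36 beside 0.46 at rest and -0.10 beside -0.19 at 30 min.

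The 16 shortest mitotic genes (692 to 2115 nt) had a median ratio of WT at 30 min over rest of -0.17, and other expressed genes of these lengths had -0.21. The 16 longest (3526 to 11130 nt) had 0.18, and other genes of their lengths 0.13. The genotype difference was present in both classes. The shortest had medians of -0.93 at rest and -0.73 at 30 min, against -0.21 and 0.05 for other genes of their lengths, and the longest had -0.66 and -0.76, against 0.10 and -0.01. With the trend over length removed, the count of members lower by the fold was 30 at rest and 33 at 30 min. The part of length in the ratios of single members such as Stmn1, Pttg1 and the midzone genes was not tested.

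**Figure D4:**
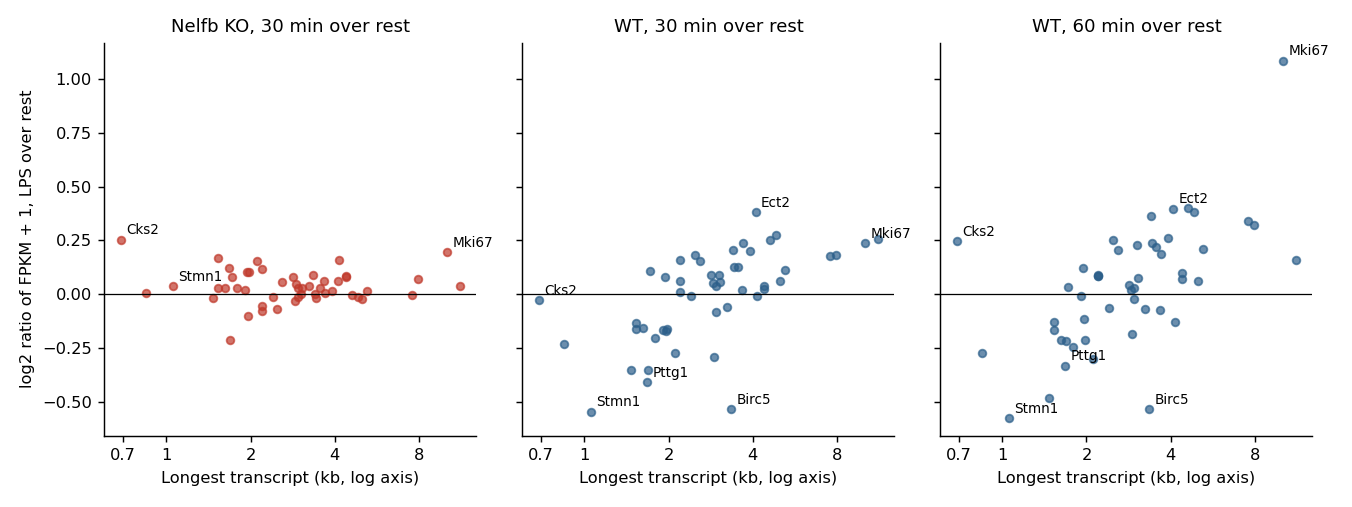
Log2 ratio of FPKM + 1, LPS over rest, against the length of the longest transcript (kb, log axis) for the 49 genes in Nelfb KO at 30 min (left), WT at 30 min (middle) and WT at 60 min (right). Points slope upward with length in both WT panels (Spearman rho 0.69 and 0.64) and lie flat in the KO panel (-0.03), and Mki67 stands highest at 60 min.

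Other cell cycle genes were taken from lists that hold none of the 49, and their medians differed from list to list. Of 39 DNA replication genes, 20 were lower by the fold in Nelfb KO BMDM at rest and 14 at 30 min, none was higher, the medians were -0.77 and -0.70, and in 38 of 39 both KO averages lay below all WT averages. Pcna, the sliding clamp of DNA polymerase and the most abundant of them, had 193 FPKM at rest and 203 FPKM at 30 min in Nelfb KO BMDM, against 253, 256 and 346 FPKM at rest, 30 min and 60 min in WT BMDM, a ratio of -0.38 and -0.33. Mcm6, a subunit of the replicative helicase, stood at -0.87 and -0.71, Gmnn, geminin, which blocks relicensing of origins, at -1.20 and -0.68, and Rrm1, a subunit of ribonucleotide reductase, at -0.84 and -0.84.

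In the lists that follow, the genes named as passing the fold were named after their values were seen. Of 16 condensin and cohesin genes, 4 were lower at rest (Ncapd2, Ncaph, Cdca5 and Esco2) and 4 at 30 min (Ncapd2, Ncapg, Ncaph and Esco2), with medians of -0.39 and -0.46. The abundant cohesin subunits, which also act outside mitosis, did not pass the fold, with Rad21 at 0.07 and -0.20, Stag2 at 0.30 and 0.01 and Smc1a at -0.26 and -0.15. Of 33 further kinetochore and centromere genes, 6 were lower at rest and 4 at 30 min (Cenpn, Oip5, Ska2 and Ska3), with medians of -0.47 and -0.51 and the checkpoint protein Bub3 at -0.24 and -0.16. Of 28 further spindle and cytokinesis genes, 6 were lower at rest and 7 at 30 min, with medians of -0.36 and -0.49 and Mapre1, the microtubule plus-end protein EB1, at 0.05 and -0.05. Of 16 APC/C subunits and partners, 2 were lower at rest (Fbxo5 and Ube2s), and at 30 min 1 was lower (Fbxo5) and 1 higher (Anapc13), with medians of -0.19 and 0.01. Ube2s, the enzyme that extends ubiquitin chains for the APC/C, had -0.75 at rest and -0.07 at 30 min.

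Of 25 regulators of G2 and mitosis, 3 were lower at rest (Cdc25c, Pkmyt1 and Foxm1) and 3 at 30 min (Pkmyt1, Foxm1 and E2f8), with medians of -0.28 and -0.41. Rbbp4, a histone-binding subunit of the MuvB core of DREAM and the most abundant of them, stood at -0.03 and -0.10. Nfya, a subunit of the CCAAT-binding factor NF-Y, had -0.28 and -0.46. The other NF-Y subunits, named after their values were seen, were not lower, with Nfyb at 0.01 and 0.07 and Nfyc at 0.04 and 0.14. The lowest of the list was Foxm1, a transcription factor of G2 and mitosis, with 2.09 and 2.11 FPKM in the KO averages at rest and 30 min, and 4.28, 4.69 and 4.38 FPKM in the WT averages at rest, 30 min and 60 min, and ratios of -0.77 and -0.87. None of the 5 expressed CDK inhibitors of 7 passed the fold between genotypes, with medians of -0.37 and 0.06. At rest 4 of them were below 0 and 1 above, and at 30 min 2 were below and 3 above. Cdkn1a, p21, had 65.3 (rest) and 92.2 (30 min) FPKM in Nelfb KO cells, against 76.9 (rest), 86.3 (30 min) and 207 (60 min) FPKM in WT cells, and was higher at 60 min than at rest in WT by 1.41 on the log2 scale. Cdkn1b, p27, had 18.2 FPKM at rest and 19.4 FPKM at 30 min in Nelfb KO BMDM, against 12.9, 13.8 and 14.02 FPKM at rest, 30 min and 60 min in WT BMDM, with 0.46 and 0.46, just short of the higher limit. Cdkn2d and Cdkn2c, also CDK inhibitors, were below 0 at both times, at -0.59 and -0.24 and at -0.44 and -0.48. Housekeeping genes gave 0 of 12 past the fold in either direction at either time, with medians of -0.11 and -0.01.

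**Figure D5:**
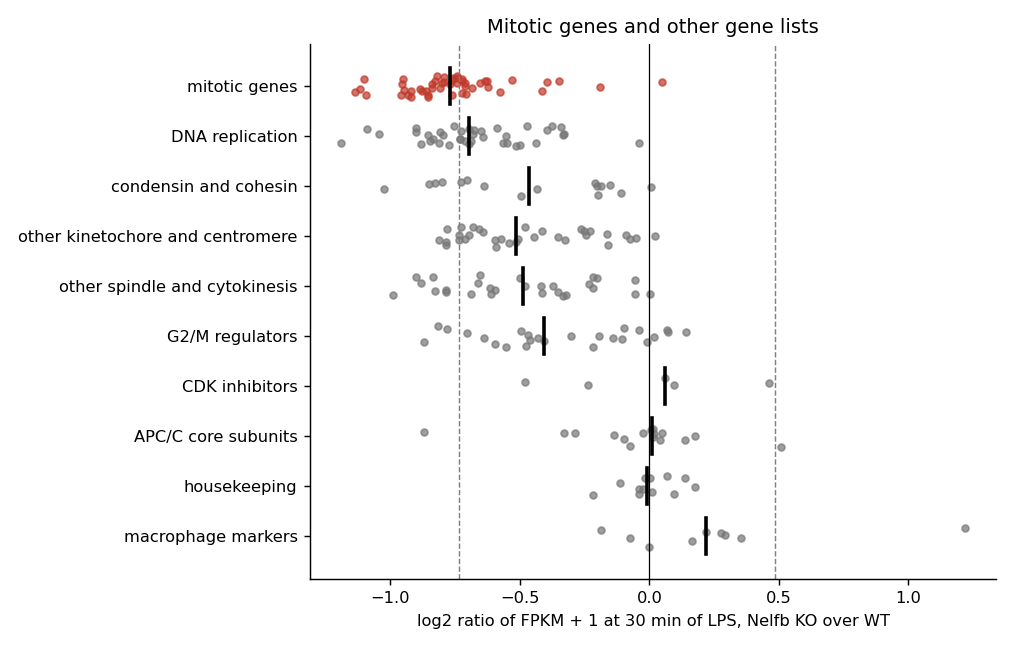
Log2 ratio of FPKM + 1 at 30 min of LPS, Nelfb KO over WT, for the 49 mitotic genes and 9 other gene lists. Each point is an expressed gene, the black bar is the median of its list and dashed lines mark ratios of 0.6 and 1.4. Medians are -0.77 for mitotic and -0.70 for DNA replication genes, and 0.01 and -0.01 for APC/C subunits and housekeeping genes.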

How the data were processed

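RNA-seq of 15 libraries (5 groups of 3) was deposited by the authors as 1 table of FPKM per gene, the average of each group. Per the methods and processing notes, reads were demultiplexed with CASAVA 1.8, aligned uniquely to mm10 with TopHat2 2.1.0 and quantified with Cufflinks 2.2.1. Counting by strand was not given in the sources used here. 3 groups were repeated in further columns, which held other values for 17 genes and for 0 of the members. Columns of the authors' fold changes, p-values and q-values for 4 comparisons were not used.

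Ratios were computed as log2(FPKM + 1), a scale that understates differences of low genes, over the 11258 genes that reached 0.5 FPKM on average, and counted as lower at 0.6 or less and higher at 1.4 or more. The planned limma test could not be run without values per library. Depth is unknown. Lengths came from GENCODE M21, with 441 matched by an older symbol, and promoters from RefSeq. Values in each group were given for the 10 most abundant members, the 10 with the largest ratio in each genotype comparison and those a role's account turned on, and ratios for the 5 largest in each LPS comparison. Of other lists, up to 4 of the most abundant genes were named, beside genes named after their values were seen. One macrophage marker is not reported here. Members and lists were chosen with earlier results of these data known. Pseudocount, filter, scaling, fold, length trend and comparison group were varied. Python 3.11.15, numpy 2.4.6 and pandas 2.3.3 were used.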

Additional observations from a re-analysis of the deposited data

How the results depend on the processing

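Of 129 recomputed values, 124 stayed near the reported value. The settings were pseudocounts, filters, median scaling, quantile normalization, a symmetric fold of 1.5, removal of the length trend and other comparison groups. Near meant a count within a factor of 1.5, or a median within 0.1 or within a factor of 1.5. Some values could hardly move. All 49 members passed the filter, so the values without a filter were fixed in advance, and the filter at 1 FPKM kept 48 of them. Resting Nelfb KO and WT at 30 min were also set against each other in both directions. Among the 124, the median of Nelfb KO at 30 min over rest changed sign under quantile normalization, from 0.03 to -0.003. The count of members lower in Nelfb KO ranged from 30 to 40 at rest and from 28 to 42 at 30 min, with none higher, and the medians from -0.96 to -0.76 and from -0.95 to -0.75. With a pseudocount of 0.1, 1 member was higher in WT at 30 min and 3 at 60 min than at rest, and with the length trend removed 2 were higher at 60 min. Set against resting Nelfb KO in place of resting WT, WT at 30 min had 44 higher members and a median of 0.81. Genotype and LPS both differ in that contrast. Alternatives that set KO averages against another WT time, and a plain ratio of FPKM, include 2 chosen after seeing the data. No paired analysis was possible because the table holds group averages only, and leaving out single libraries was not run for the same reason. The spread between libraries and the depth are unknown here, so no difference was set against the spread between replicates.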
